A study of Mus musculus with 12 samples.

Results

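The genes described here are those that load peptides onto major histocompatibility complex (MHC) class I molecules, 10 of the 55401 genes in the count table. They were chosen by name as a pathway, with earlier results of these data known, so shares set beside those of all genes are descriptive. Each symbol matched a single gene identifier. By role they are the light chain B2m, the heavy chains H2-D1 and H2-K1, the peptide transporter subunits Tap1 and Tap2, and the loading factor tapasin, Tapbp. The immunoproteasome subunits Psmb8, Psmb9 and Psmb10 and the transactivator Nlrc5 complete the set. All 10 passed the filter on low counts, so all 10 were tested.

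MHC class I molecules show fragments of a cell's own proteins at its surface, where CD8 T cells and natural killer (NK) cells read them. The proteasome cuts proteins into peptides, the TAP transporter carries these into the endoplasmic reticulum, and tapasin helps to load them onto a heavy chain bound to beta-2-microglobulin. Interferons, above all interferon gamma, raise nearly every gene of this path and replace the constitutive catalytic subunits of the proteasome with the immunoproteasome subunits. NLRC5 drives class I genes through a promoter module of X and Y boxes. In healthy brain, class I levels are low and are highest in microglia and endothelium.

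The tissue was prefrontal cortex from C57BL/6J males, 14 weeks old, taken 4 weeks after stereotaxic surgery with delivery of adeno-associated virus (AAV) to the dorsomedial part of both sides. The control group (ctrl, n = 4) received pAAV.1-CAG-GFP, which makes green fluorescent protein. The overexpression group (Ttr-OE, n = 4) received pAAV-CAG-GFP-P2A-Ttr-WPRE.bgH, which makes GFP and transthyretin, the carrier of thyroid hormone and retinol. The knockdown group (Ttr-KD, n = 4) received an AAV with Ttr-shRNA-2 behind a U6 promoter, a hairpin RNA against Ttr, and with CAG-GFP-WPRE3. The mice are wild type, the broadly active CAG promoter restricts expression to no cell type, and surgery, AAV and GFP were common to the 3 groups. The name of the control vector contains neither a hairpin nor a WPRE element. It came from a repository and both Ttr vectors were custom made elsewhere, so vector design, vector source and treatment cannot be told apart.

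Total counts of the poly(A) RNA libraries were 19879629 to 37166146. Ttr had 2121 to 20940 counts in the overexpression libraries, 14 to 200 in controls and 3 to 47 in knockdown libraries, so Ttr matched the overexpression label, and its low counts in controls leave the knockdown label unchecked. Markers of cortical neurons summed to 4959 to 6771 CPM (counts scaled to a common library size) in every library. Markers of striatum, a neighbouring region, ranged from 104 to 689 CPM with a wide range in each group. The lowest sum was that of knockdown replicate 4 and the highest that of overexpression replicate 4. Nothing in the labels ties a sample to its own mouse, so the p-values reflect sample-to-sample spread, part of which may be technical. In overexpression replicate 4 and knockdown replicate 4 the class I genes stood apart from the other libraries, and results are given with and without them.

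Most of these genes lie in the MHC on chromosome 17 (GRCm38). H2-K1 spans 33996017 to 34000347, Psmb9 34181987 to 34187764, Tap1 34187553 to 34197225, Psmb8 34197721 to 34201454, Tap2 34203527 to 34216321 and H2-D1 35262730 to 35267499, with Tapbp at 33915899 to 33929292. Outside the MHC, B2m lies on chromosome 2 at 122147686 to 122153083, and Nlrc5 (94434356 to 94527272) and Psmb10 (105935735 to 105938444) lie on chromosome 8. Psmb9 and Tap1 start back to back on opposite strands and share 212 exon bases. Tapbp shares 149 exon bases with Zbtb22 on its own strand and 904 with an antisense gene. The strand setting of the counting is not given in the sources used here, so reads in these shared stretches are uncertain.

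Promoter sequences are shown because the best-known control elements of class I genes lie just before their start. RefSeq (GRCm38.p6) held the 250 bases before the start for 8 of the 10 genes, all but Tap2 and Nlrc5. The windows were searched on both strands for the interferon response core AANNGAAA, the gamma-activated core TTCNNNGAA, the kappaB core GGGNN followed at once by TTNCC, the X2 box core TGACG and the Y box core ATTGG. The heavy chains and the light chain shared a 30-base stretch in which TGACG and ATTGG, in capitals, stand 20 bases apart on the coding strand.
B2m (chr2:122147609-122147638, plus strand): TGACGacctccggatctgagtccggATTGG
H2-K1 (chr17:34000359-34000388, minus strand): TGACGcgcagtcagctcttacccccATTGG
H2-D1 (chr17:35262993-35263022, plus strand): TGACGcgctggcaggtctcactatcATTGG
The bases between the capitals differ from gene to gene. The stretch of B2m ends 49 bases before the RefSeq start, within an intron of Patl2 on the other strand, and that of H2-K1 ends 12 bases before the start, outside any annotated gene. The H2-D1 stretch ends 72 bases before the RefSeq start, inside the 5' untranslated region of a longer annotated transcript of H2-D1. This spacing was noticed in these windows and then counted: 30 of 32851 RefSeq windows held it (0.0913%), 4 of them from these genes (2 of H2-K1 and 1 each of B2m and H2-D1).

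The same 3 promoters also held an interferon response core and a kappaB core, found in 21.3% and 4.11% of all windows. In the B2m and H2-K1 windows, the capitals mark, in the order read, these 2 elements and then the X2 and Y cores; none of the elements overlap each other.
B2m (chr2:122147437-122147685, plus strand): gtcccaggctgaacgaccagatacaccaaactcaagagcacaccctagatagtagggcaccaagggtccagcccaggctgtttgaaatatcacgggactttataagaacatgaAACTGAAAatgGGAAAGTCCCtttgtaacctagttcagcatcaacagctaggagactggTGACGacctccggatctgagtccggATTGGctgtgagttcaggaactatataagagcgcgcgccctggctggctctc
H2-K1 (chr17:34000348-34000597, minus strand): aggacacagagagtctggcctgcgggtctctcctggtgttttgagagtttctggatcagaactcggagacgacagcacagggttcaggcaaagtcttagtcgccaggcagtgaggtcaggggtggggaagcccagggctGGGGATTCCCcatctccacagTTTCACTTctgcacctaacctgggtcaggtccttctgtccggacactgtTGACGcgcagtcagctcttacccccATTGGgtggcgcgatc
In B2m the interferon response core comes first and the kappaB core follows, while in H2-K1 that order is reversed. Psmb8 held a gamma-activated core 97 bases before its RefSeq start, as 7.02% of windows did, and Tap1 an X2 core 86 bases before its own, as 17.8% did. In the next lines those cores are in capitals; the Psmb8 stretch lies in the 5' untranslated region of a longer Psmb8 transcript and the Tap1 stretch in that of Psmb9, on the opposite strand.
Psmb8 (chr17:34198088-34198117, plus strand): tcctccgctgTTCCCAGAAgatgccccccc
Tap1 (chr17:34187458-34187487, plus strand): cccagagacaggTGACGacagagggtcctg
A Y core (33.9% of windows) was found before 6 of the 8 genes and an X2 core before 5. The windows of Tap1 and Psmb9 overlap, and their X2 core (34187470 to 34187474) and Y core (34187334 to 34187338) are the same bases, counted for both genes. The Psmb10 window held none of the letters searched. A match of letters is a description of the window and not a measured binding site.

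Class I genes had higher means with both Ttr vectors than with the GFP vector, and the excess was uneven across libraries. The median of the 10 log2 fold changes was 1.44 in overexpression against control and 1.17 in knockdown against control, where the median over all 18289 genes tested was 0.0038 and 0.0047. All 10 genes were above 0 in both comparisons, which share the control libraries. Nlrc5 had the highest value in each (2.48 and 1.79) and the immunoproteasome subunit Psmb10 the lowest (0.02 and 0.16). No gene of the set passed the edgeR test after adjustment in either comparison. In bulk tissue, more cells that make a transcript and more transcript per cell cannot be told apart.

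**Figure D1:**
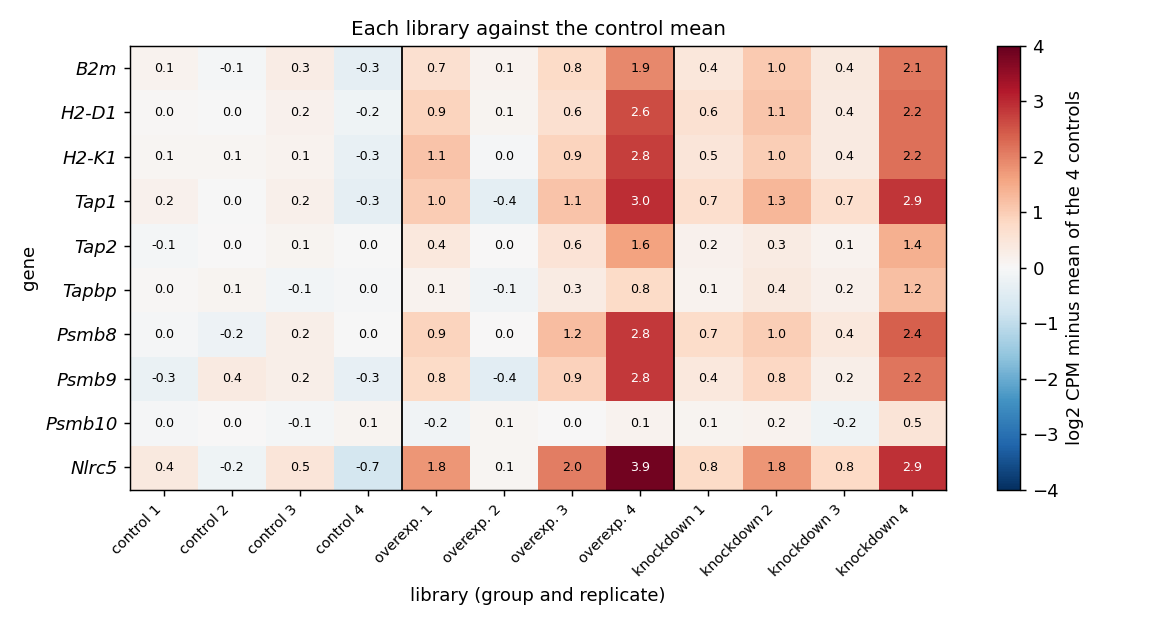
Difference in log2 CPM of each library from the mean of the 4 controls, for the 10 genes (vertical axis) in the 12 libraries (horizontal axis), with the rounded value in each cell. Replicate 4 of both Ttr groups holds the darkest cells, up to 3.86 for Nlrc5, and the Psmb10 line stays pale.

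Library by library, the median difference from the control mean was 0.82, 0.01, 0.83 and 2.70 on the log2 scale in overexpression replicates 1 to 4. It was 0.46, 0.99, 0.36 and 2.17 in knockdown replicates 1 to 4, and between -0.24 and 0.17 in the controls. Overexpression replicate 2 thus lay among the controls, and replicate 4 of each Ttr group lay far above every other library. Of the 10 genes, 9, 0, 9 and 10 were above every control in overexpression replicates 1 to 4, and 10, 10, 8 and 10 were so in knockdown replicates 1 to 4. The share of all genes above every control was not computed for single libraries, so these counts have no background beside them. Nlrc5 had the largest excess in all Ttr libraries but overexpression replicate 2, and Psmb10 the smallest in all but that library. The order of the overexpression libraries differed from that of their Ttr counts, 20940, 8527, 7263 and 2121 in replicates 1 to 4: the library with the fewest Ttr counts had the highest class I levels. Scaled for depth, Ttr ran from 94.2 to 639 CPM in this group, with a median of 260 CPM. A relation between Ttr and class I levels was not tested.

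B2m encodes the light chain that every class I molecule needs. It stood at 79.2, 68.1, 88.2 and 56.6 CPM in the controls, at 113, 78.8, 123 and 274 CPM with overexpression (replicates 1 to 4), and at 98.1, 149, 94.5 and 308 CPM with knockdown (replicates 1 to 4). All knockdown libraries were above all controls, and overexpression replicate 2 was within them. Group means were 73.0 ± 13.7 CPM in controls (SD, n = 4), 147 ± 86.5 CPM with overexpression and 162 ± 100 CPM with knockdown. The log2 fold change was 1.01 ± 0.40 (SE; edgeR adjusted p = 0.773) with overexpression and 1.15 ± 0.41 (edgeR adjusted p = 0.808) with knockdown.

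H2-D1, a classical heavy chain, had 46.3, 44.7, 50.4 and 39.7 CPM in the controls. It had 83.7, 48.3, 70.5 and 278 CPM with overexpression and 68.5, 96.5, 57.6 and 206 CPM with knockdown. The controls spanned a narrow range, from which overexpression replicate 2 did not depart and above which all knockdown libraries lay. Against the control mean of 45.3 ± 4.42 CPM (SD, n = 4), the log2 fold change was 1.40 ± 0.50 (edgeR adjusted p = 0.710) with overexpression and 1.24 ± 0.50 (edgeR adjusted p = 0.843) with knockdown.

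H2-K1, the other classical heavy chain of this strain, had 30.8, 31.4, 32.1 and 24.03 CPM in the controls. Its levels were 64.9, 28.6, 54.5 and 201 CPM with overexpression and 41.1, 58.6, 38.0 and 136 CPM with knockdown. The pattern over libraries was that of H2-D1, with overexpression replicate 2 inside the control range. Log2 fold changes were 1.55 ± 0.53 (edgeR adjusted p = 0.656) and 1.20 ± 0.53 (edgeR adjusted p = 0.863), from a control mean of 29.6 ± 3.73 CPM (SD, n = 4). In replicate 4 of overexpression and knockdown, H2-K1 stood at 6.79 and 4.61 times the control mean and H2-D1 at 6.15 and 4.55 times.

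**Figure D2:**
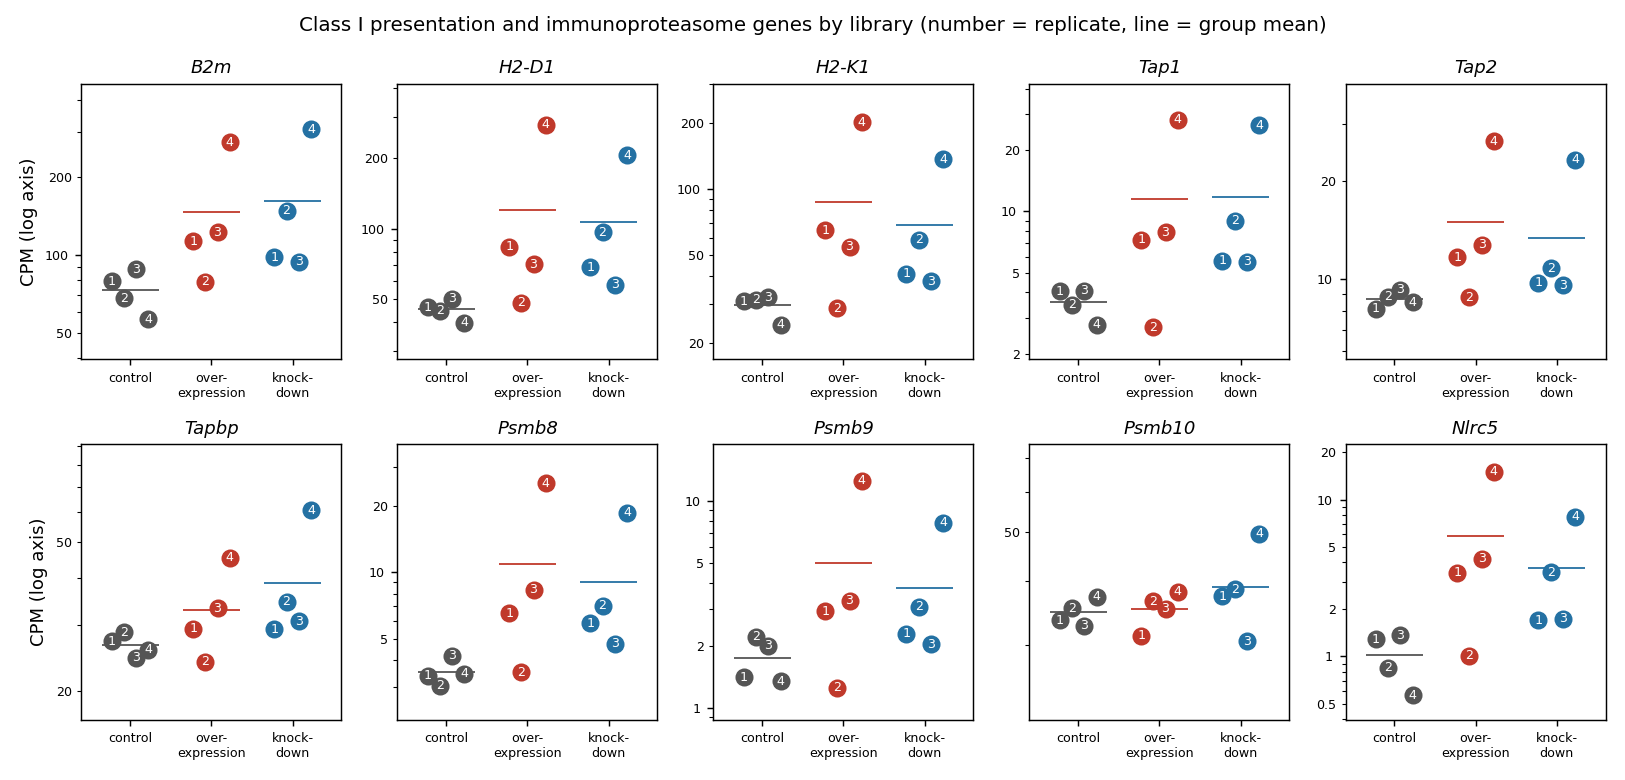
CPM of each of the 10 genes (vertical axes, log scale, range set per gene) in control, overexpression and knockdown libraries, with the replicate number in each point and a line at the group mean. For 8 genes every knockdown point lies above every control point, and for all 10 the overexpression points overlap the controls.

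Tap1, an ATP-driven subunit of the peptide transporter, was low in the controls at 4.06, 3.48, 4.07 and 2.78 CPM. It stood at 7.26, 2.69, 7.88 and 28.2 CPM with overexpression and at 5.73, 9.01, 5.65 and 26.5 CPM with knockdown. Overexpression replicate 2 was below every control for this gene, and replicate 4 of overexpression and of knockdown stood at 7.85 and 7.36 times the control mean. The log2 fold change was 1.65 ± 0.65 (edgeR adjusted p = 0.748) with overexpression and 1.68 ± 0.65 (edgeR adjusted p = 0.834) with knockdown.

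Tap2, its partner in the transporter, was higher and steadier in the controls, at 8.12, 8.84, 9.25 and 8.50 CPM. It had 11.7, 8.80, 12.7 and 26.5 CPM with overexpression and 9.75, 10.8, 9.56 and 23.2 CPM with knockdown. Replicates 1 to 3 of the knockdown group lay just above the highest control, and replicate 4 was far above it. Fold changes on the log2 scale were 0.77 ± 0.34 (edgeR adjusted p = 0.792) with overexpression and 0.61 ± 0.34 (edgeR adjusted p = 0.897) with knockdown.

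Tapbp encodes tapasin, which holds an empty heavy chain next to the transporter. It had 27.1, 28.7, 24.5 and 25.8 CPM in the controls, 29.3, 23.9, 33.3 and 45.3 CPM with overexpression and 29.2, 34.6, 30.7 and 60.7 CPM with knockdown. Overexpression replicate 2 was below every control, and all knockdown libraries were above the controls. Its log2 fold change was 0.54 ± 0.22 (edgeR adjusted p = 0.843) with knockdown and 0.31 ± 0.22 (edgeR adjusted p = 0.860) with overexpression. The value for overexpression against knockdown itself was -0.23 ± 0.22, so the gap was about the size of its error.

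Psmb8, the immunoproteasome subunit that replaces Psmb5, had 3.40, 3.06, 4.18 and 3.47 CPM in the controls. It had 6.50, 3.52, 8.31 and 25.3 CPM with overexpression and 5.87, 7.04, 4.73 and 18.6 CPM with knockdown. All knockdown libraries were above the controls, with replicate 3 the nearest. Its log2 fold change was 1.60 ± 0.56 (edgeR adjusted p = 0.683) with overexpression and 1.33 ± 0.56 (edgeR adjusted p = 0.847) with knockdown.

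Psmb9, which replaces Psmb6, was near the depth limit with 31 to 73 counts per control library, or 1.41, 2.21, 1.99 and 1.34 CPM. It had 2.93, 1.25, 3.30 and 12.4 CPM with overexpression and 2.28, 3.08, 2.03 and 7.81 CPM with knockdown. Knockdown replicate 3 fell inside the control range and overexpression replicate 2 below it, so neither group was clear of the controls. On the log2 scale the fold change was 1.48 ± 0.62 (edgeR adjusted p = 0.786) with overexpression and 1.09 ± 0.63 (edgeR adjusted p = 0.900) with knockdown.

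Psmb10, which replaces Psmb7, behaved unlike the other 9 genes. Its levels were 33.5, 35.4, 32.7 and 37.3 CPM in the controls, 31.2, 36.6, 35.4 and 38.1 CPM with overexpression and 37.4, 38.5, 30.5 and 49.6 CPM with knockdown. The groups overlapped throughout, and only knockdown replicate 4 was well outside the range of the controls. The log2 fold change was 0.02 ± 0.12 (edgeR adjusted p = 0.985) with overexpression and 0.16 ± 0.12 (edgeR adjusted p = 0.918) with knockdown.

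Nlrc5, the transactivator, was the scarcest of the 10, with 31, 20, 50 and 13 counts in the controls. Overexpression replicates 1 to 4 held 112, 33, 117 and 338 counts, and knockdown replicates 1 to 4 held 35, 87, 61 and 152. Scaled for depth, these were 1.28, 0.849, 1.36 and 0.564 CPM in controls, 3.42, 1.01, 4.19 and 15.01 CPM with overexpression and 1.70, 3.44, 1.74 and 7.76 CPM with knockdown. Replicate 4 of overexpression and of knockdown stood at 14.8 and 7.64 times the control mean, the highest multiple among the 10 genes in each of these libraries. Its log2 fold change was 2.48 ± 0.73 (edgeR adjusted p = 0.626) with overexpression and 1.79 ± 0.75 (edgeR adjusted p = 0.847) with knockdown.

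EdgeR called 0 of the 10 genes at an adjusted p of 0.05 in overexpression against control, where it called 0.00547% of all genes tested (1 of 18289, Ttr). DESeq2 also called 0 of the 10, against 0.17% of the genes it tested, and limma-voom 0. At an unadjusted edgeR p below 0.05 there were 8 of the 10, all higher, against 6.26% of all genes in either direction and 4.58% higher. A log2 fold change of 1 or more was reached by 7 of the 10 and by 1.49% of all genes. None of the 10 was clear of the controls in either direction, which 1.88% of all genes were on the high side and 0.837% on the low side.

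These counts rested in part on overexpression replicate 4. Without it, 1 of the 10 genes had an unadjusted p below 0.05, 1 had a log2 fold change of 1 or more (Nlrc5, 1.45), and the median was 0.54. Over all genes, 847 of 18529 tested in that fit had an unadjusted edgeR p below 0.05 (547 higher). Leaving out overexpression replicate 4 and knockdown replicate 4 together was added after their high values were seen. This also takes the second high library out of the estimate of spread, so the p-values are not independent of that choice. In that setting 7 of the 10 had an unadjusted edgeR p below 0.05, against 909 of 18507 genes tested (689 higher), and the median was 0.55. Leaving out control replicate 4, the lowest control for most of these genes, left 4 at an unadjusted p below 0.05. Over all genes this was 743 of 18595 tested (617 higher). Without overexpression replicate 2 the median was 1.73 and the smallest edgeR adjusted p was 0.129, for Nlrc5, which was the smallest reached by any of the 10 genes under any alternative in this comparison (range 0.129 to 1).

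In knockdown against control edgeR again called 0 of the 10 genes, against 0.00547% of all genes (1 of 18289), and DESeq2 called 0, against 0.226%. At an unadjusted edgeR p below 0.05 there were 7 of the 10, all higher, against 5.68% of all genes in either direction and 3.85% higher. A log2 fold change of 1 or more was reached by 7 of the 10 and by 1.03% of all genes. In 8 of the 10, all but Psmb9 and Psmb10, every knockdown library was above every control, against 2.78% of all genes on the high side and 1.33% on the low side. That count did not need knockdown replicate 4, since it is set by the lowest knockdown library.

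The size of the difference did need it. Without knockdown replicate 4 the median fell from 1.17 to 0.63, 1 of the 10 genes kept a log2 fold change of 1 or more (Nlrc5, 1.14), and 0 had an unadjusted p below 0.05. Over all genes, 768 of 18553 tested in that fit had an unadjusted edgeR p below 0.05 (541 higher). Without replicate 4 of both groups, a setting chosen after their high values were seen, the median was also 0.63. There 7 genes had an unadjusted edgeR p below 0.05, against 894 of 18507 genes tested (642 higher), and these p-values are not independent of that choice. Leaving out control replicate 1, 2 or 4 left 4, 3 and 1 genes at that level. Over all genes these were 1048 of 18604, 835 of 18606 and 772 of 18595 tested (645, 575 and 552 higher). The edgeR, DESeq2 and limma adjusted p-values of the 10 genes ranged from 0.482 to 1 over all alternatives in this comparison.

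**Figure D3:**
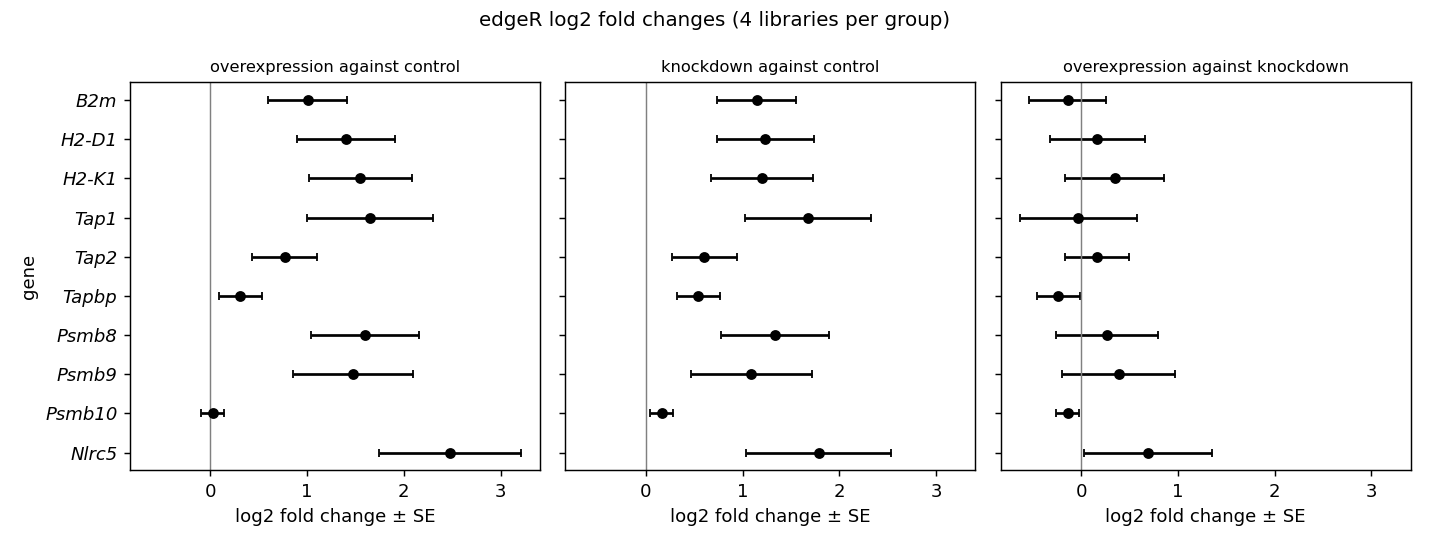
Log2 fold change (horizontal axes) of the 10 genes with bars of 1 SE, from edgeR on 4 libraries per group, in the 3 comparisons. Values against control run from 0.02 to 2.48 with overexpression and from 0.16 to 1.79 with knockdown, and those of overexpression against knockdown lie between -0.23 and 0.69.

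Set directly against each other, the overexpression and knockdown groups did not differ in these genes beyond their spread. The median log2 fold change was 0.16, 6 of the 10 genes were above 0, and values ran from -0.23 ± 0.22 for Tapbp to 0.69 ± 0.66 for Nlrc5. EdgeR called 0 of the 10 (0.00547% of all genes), DESeq2 0 (0.0203%), and 0 had an unadjusted p below 0.05 (5.1% of all genes, 2.78% higher). None reached a log2 fold change of 1 (0.629% of all genes) and none was clear of the other group (1.23% of all genes on the high side and 1.14% on the low side). The smallest adjusted p was 0.982. The direction itself rested on replicate 4 of either group, with a median of -0.52 without that of overexpression and 0.72 without that of knockdown.

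Levels between genes can be compared only per length, for which the deposited TPM values (abundance per transcript length) were used. In the controls B2m was far the most abundant at 212 ± 40.9 TPM (SD, n = 4), followed by Psmb10 at 66.4 ± 4.07, H2-D1 at 53.8 ± 5.45 and H2-K1 at 45.7 ± 5.55 TPM. Tapbp stood at 22.8 ± 1.15, Tap2 at 6.30 ± 0.390, Psmb8 at 5.42 ± 0.801, Psmb9 at 3.21 ± 0.763, Tap1 at 3.04 ± 0.520 and Nlrc5 at 0.336 ± 0.126 TPM. Neighbours in this order that lay closer than the sum of their SDs were H2-D1 and H2-K1, Tap2 and Psmb8, and Psmb9 and Tap1. Under the GFP vector the light and heavy chains were thus well above the transporter subunits, and Psmb8 and Psmb9 were well below Psmb10.

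With the Ttr vectors the order of means changed near the top of the list and lower down. B2m stayed first, at 445 ± 267 TPM with overexpression (SD, n = 4) and 466 ± 267 TPM with knockdown. H2-D1 (149 ± 133 and 126 ± 74.1 TPM) and H2-K1 (141 ± 126 and 104 ± 65.6 TPM) came before Psmb10 (69.8 ± 5.41 and 74.3 ± 12.3 TPM), which had led them in controls, though their distance from Psmb10 was within the sum of their SDs. Lower down, Psmb8 (17.5 ± 15.9 and 13.7 ± 9.10 TPM) came before Tap2 (11.3 ± 6.09 and 9.58 ± 4.32 TPM). Tap1 (10.2 ± 10.1 and 9.73 ± 7.84 TPM) came before Psmb9 (9.61 ± 9.83 and 6.92 ± 4.62 TPM) and, with knockdown, before Tap2. These gaps too were within the sums of the SDs. The spread between libraries also differed in size, without a test: the coefficient of variation of CPM was 5.57% (Tap2) to 37.1% (Nlrc5) in controls, 8.31% (Psmb10) to 105% (Nlrc5) with overexpression and 20.3% (Psmb10) to 85.1% (Tap1) with knockdown.

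The mRNA of each inducible subunit was set against that of the constitutive one it replaces, as a percentage of TPM. These ratios describe transcripts in bulk tissue, and the share of assembled immunoproteasome was not measured. Psmb8 was at 6.50, 5.51, 8.43 and 5.99% of Psmb5 in controls, at 13.6, 6.40, 19.0 and 50.9% with overexpression and at 10.0, 14.1, 9.37 and 37.1% with knockdown. All knockdown libraries exceeded all controls, and overexpression replicate 2 did not. Psmb9 was at 1.30, 1.85, 2.00 and 1.12% of Psmb6 in controls, at 2.98, 1.25, 3.43 and 11.2% with overexpression and at 1.87, 2.83, 1.93 and 7.43% with knockdown. Psmb10 was already at 30.9, 30.05, 31.7 and 31.9% of Psmb7 in controls, and at 31.1, 33.8, 34.4 and 38.6% with overexpression and 34.3, 36.8, 30.5 and 47.8% with knockdown. Thus the ratio varied most for Psmb8 and Psmb9, from a low start, and least for Psmb10.

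**Figure D4:**
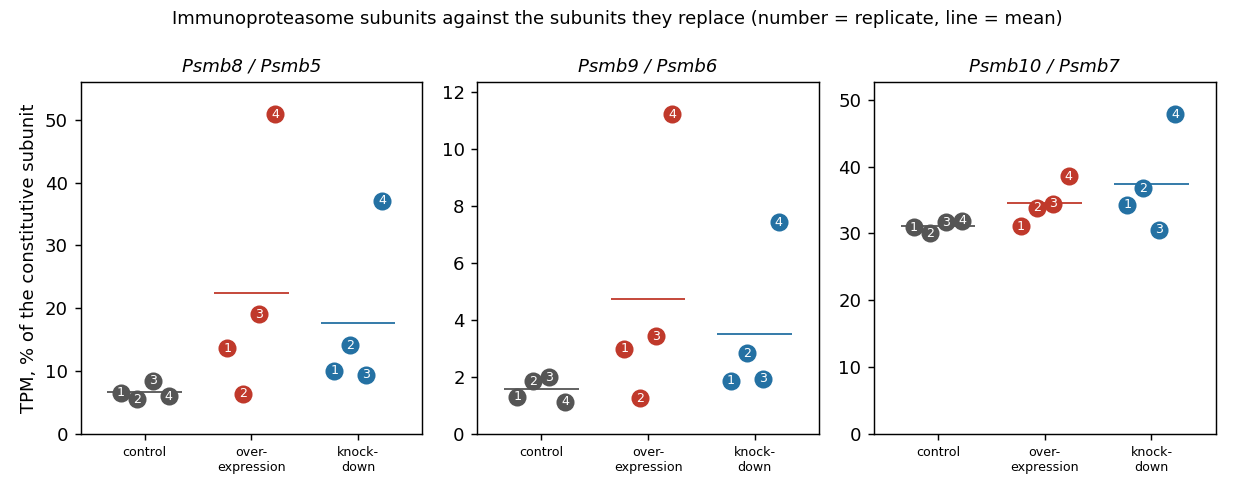
TPM of each immunoproteasome subunit as a percentage of the constitutive subunit it replaces (vertical axes, linear from 0), with the replicate number in each point and a line at the group mean. Replicate 4 of overexpression reaches 50.9% for Psmb8 and 11.2% for Psmb9, while the Psmb10 ratio lies between 30.05 and 47.8% in all 12 libraries.

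In exact two-sided permutation tests the mean log2 ratio of Psmb8 to Psmb5 was 1.19 ± 0.48 higher (SE) in knockdown than in control libraries (p = 0.0286, the smallest that 4 against 4 allows) and 1.39 ± 0.63 higher with overexpression (exact p = 0.0857). After Benjamini-Hochberg adjustment over the 9 ratio tests both had an adjusted p of 0.171, so neither passed. Even a ratio at the smallest possible p could not pass by itself over 9 tests, so not passing carries little information. Psmb9 to Psmb6 differed by 0.95 ± 0.50 with knockdown and 1.18 ± 0.68 with overexpression (exact p = 0.114 for each, adjusted p = 0.171). Psmb10 to Psmb7 differed by 0.24 ± 0.14 with knockdown (exact p = 0.114) and 0.14 ± 0.07 with overexpression (exact p = 0.0857), again with adjusted p = 0.171. Overexpression against knockdown gave 0.20 for Psmb8, 0.23 for Psmb9 and -0.10 for Psmb10, with exact p-values of 0.857, 0.714 and 0.657. The constitutive subunits moved little, with log2 fold changes of -0.13, -0.14 and -0.12 for Psmb5, Psmb6 and Psmb7 with overexpression and -0.04, -0.02 and -0.10 with knockdown.

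The class I genes varied together over the 12 libraries. Across the 9 genes other than Psmb10, Pearson's r of log2 CPM lay between 0.84 and 0.99 in all 36 pairs, with a median of 0.965. Psmb10 correlated with those genes at 0.409 to 0.729. These coefficients describe 12 libraries that share their depth and scaling across genes, and replicate 4 of both Ttr groups sets the upper end of the range. Among all 15881 genes with a mean of at least 1 CPM, those outside the set most like its mean profile were Iigp1 (r = 0.993), Gbp5 (0.988), Irgm2 (0.987) and Igtp (0.987), which are interferon-inducible GTPases. Then came the heavy chain H2-Q4 (0.986), the lysosomal protease Ctss (0.985), the macrophage perforin-like gene Mpeg1 (0.984) and Cd274 (0.981), which encodes the inhibitory ligand PD-L1.

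Iigp1, the closest of these, had 1.86, 2.08, 2.76 and 1.17 CPM in controls, 6.07, 1.74, 8.85 and 39.8 CPM with overexpression and 3.54, 7.59, 3.37 and 30.4 CPM with knockdown. As for Nlrc5, replicate 4 of overexpression and then of knockdown stood highest, and overexpression replicate 2 lay among the controls. Cd274 also had these 2 libraries highest and overexpression replicate 2 among the controls, at 3.07, 3.52, 3.77 and 2.65 CPM in controls, 4.70, 2.75, 5.12 and 22.2 CPM with overexpression and 3.64, 5.45, 3.37 and 16.6 CPM with knockdown. Unlike Nlrc5, Cd274 in knockdown replicates 1 and 3 overlapped the controls. No test was applied to this likeness.

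Other genes of the path were taken as a list of 63, of which 51 passed the filter on low counts. EdgeR called 0 of the 51 in each comparison, DESeq2 called Cd8a in overexpression against control and Irf9 in knockdown against control, and limma-voom called 0. With overexpression 36 of the 51 were above 0 with a median of 0.24, and with knockdown 39 with a median of 0.14. Those clear of the controls on the high side numbered 7 and 9, where 1.88% and 2.78% of all genes tested were clear in that direction. On the low side 0 of the 51 were clear in either comparison, against 0.837% and 1.33% of all genes.

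Chaperones and trimming enzymes of the loading path differed little. Of 5 tested, 2 were above 0 with overexpression and 3 with knockdown, and the median was -0.01 and 0.02. Tapbpl, a tapasin relative that edits peptides, had a log2 fold change of 0.30 ± 0.11 (edgeR adjusted p = 0.736) with overexpression and 0.21 ± 0.11 with knockdown. Erap1, which trims peptides to length, had 0.43 ± 0.21 and 0.40 ± 0.21, and the chaperone Calr had -0.11 ± 0.09 with overexpression. The proteasome activator subunit Psme1 had 26.6, 24.8, 23.5 and 25.5 CPM in controls and 31.3, 32.3, 29.4 and 41.6 CPM with knockdown, without overlap (0.42 ± 0.13, edgeR adjusted p = 0.630). With overexpression Psme1 had 29.4, 22.9, 30.3 and 36.0 CPM (0.24 ± 0.13), and its partner Psme2 had 0.27 ± 0.17. Pomp, which assembles new proteasomes, was at -0.01 ± 0.07 with overexpression.

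Among 15 tested class I heavy chains and relatives outside the set, 13 were above 0 with overexpression and 12 with knockdown, with medians of 0.51 and 0.45. H2-Q4, a nonclassical heavy chain, had a log2 fold change of 1.92 ± 0.64 (edgeR adjusted p = 0.626) with overexpression and 1.49 ± 0.64 with knockdown. H2-Q7 had 2.59 ± 0.92 and 1.88 ± 0.94, and shares long stretches with H2-Q6, so its counts are uncertain. H2-Q1 differed in pattern: it had 24, 30, 28 and 22 counts with overexpression, replicate 2 included, against 3, 5, 15 and 1 in controls and 2, 3, 31 and 8 with knockdown. All overexpression libraries (0.732 to 1.00 CPM) were above all controls (0.0434 to 0.409 CPM), with a log2 fold change of 2.04 ± 0.58 (edgeR adjusted p = 0.596), from low counts of a gene with close copies.

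Most factors at class I promoters lay near 0. Of 13 tested, 9 were above 0 with overexpression and 10 with knockdown, with medians of 0.04 and 0.08. Ciita, the class II counterpart of Nlrc5, had 12, 4, 11 and 3 counts in controls, 29, 7, 22 and 126 with overexpression and 2, 7, 8 and 12 with knockdown. Its log2 fold change was 2.67 ± 0.86 (edgeR adjusted p = 0.626) with overexpression, 0.08 with knockdown and 2.59 ± 0.87 in overexpression against knockdown. Irf1, an interferon-induced factor, had 6.88, 7.22, 8.11 and 6.03 CPM in controls, 9.86, 7.70, 9.35 and 22.7 CPM with overexpression and 7.81, 8.30, 7.33 and 11.9 CPM with knockdown (0.80 ± 0.29 and 0.31, edgeR adjusted p = 0.718 with overexpression). Nfkb1, a kappaB subunit, had 0.24 ± 0.08 with overexpression and was clear of the controls (edgeR adjusted p = 0.626). With knockdown it had 0.12 ± 0.08 (edgeR adjusted p = 0.912) and was also clear, narrowly, at 15.091 CPM or more against at most 15.079 CPM in controls.

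Of 11 tested interferon receptor and signalling genes, 9 were above 0 with overexpression and 10 with knockdown, with medians of 0.09 and 0.16. Irf9 and Stat2 had their highest levels in the knockdown group. Irf9, a subunit of the factor activated by type I interferon, had 10.9, 7.77, 8.74 and 7.504 CPM in controls, 10.3, 7.77, 20.02 and 20.7 CPM with overexpression and 22.6, 37.3, 19.0 and 87.7 CPM with knockdown. All knockdown libraries were above all controls, with a log2 fold change of 2.24 ± 0.46 (edgeR adjusted p = 0.241; DESeq2 adjusted p = 0.00713), and 0.74 ± 0.46 with overexpression. Stat2, its partner in that factor and named after its values were seen, had 21.7, 20.4, 22.6 and 19.9 CPM in controls, 22.7, 20.3, 26.1 and 31.0 CPM with overexpression and 30.7, 37.3, 28.5 and 88.6 CPM with knockdown. Its log2 fold change was 1.12 ± 0.30 (edgeR adjusted p = 0.522) with knockdown, without overlap with the controls, and 0.24 ± 0.30 with overexpression.

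**Figure D5:**
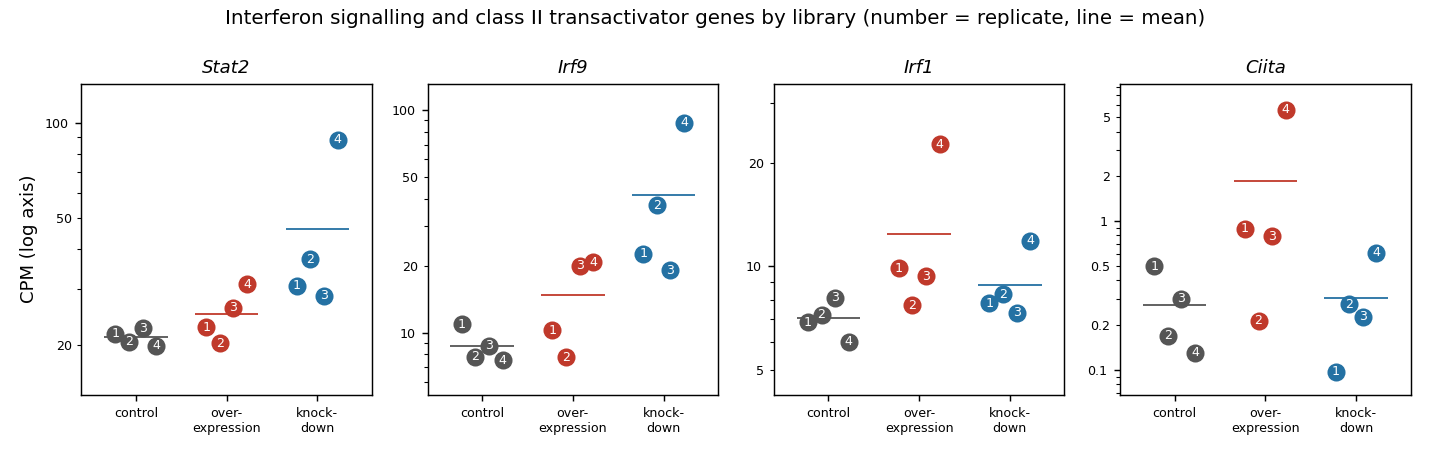
CPM of 3 interferon signalling or response factors and of the class II transactivator Ciita (vertical axes, log scale) by group, with the replicate number in each point and a line at the group mean. Stat2 reaches 88.6 CPM and Irf9 87.7 CPM in knockdown replicate 4, whereas Irf1 (22.7 CPM) and Ciita (5.60 CPM) are highest in overexpression replicate 4.

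The difference between the 2 Ttr vectors in these factors did not pass the test. Overexpression against knockdown gave -1.51 ± 0.44 for Irf9 (edgeR adjusted p = 0.855) and -0.88 ± 0.29 for Stat2. In the same comparison the median of the 10 class I genes was 0.16. The receptor chain Ifngr1 had 0.26 ± 0.12 with overexpression and 0.20 ± 0.12 with knockdown. No interferon gene other than Ifng and Ifnb1 was on the list, and transcripts of these were at the floor. Ifng had 1 and 3 counts in overexpression replicates 1 and 4 and 0 in the other 10 libraries. Ifnb1 had 1 count in knockdown replicate 4 and 0 in the other 11. Both genes stayed below the filter and were not tested.

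Of 5 receptor genes of T and NK cells only Cd8a, the coreceptor that binds class I, passed the filter. It had 2, 1, 3 and 2 counts in controls, 16, 4, 12 and 78 in overexpression replicates 1 to 4 and 3, 8, 6 and 11 in knockdown replicates 1 to 4. The log2 fold change was 3.75 ± 1.04 with overexpression (edgeR adjusted p = 0.571; DESeq2 adjusted p = 0.0202) and 1.87 with knockdown. Cd3e, a T cell receptor chain below the filter and named after its values were seen, had 23 counts in overexpression replicate 4 and 1 to 6 elsewhere.

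Markers of several cell types moved with part of these results. The 7 microglial markers, all detected, summed to 382 to 447 CPM in controls, to 472, 364, 486 and 689 CPM with overexpression and to 452, 473, 435 and 626 CPM with knockdown, each in the order of replicates 1 to 4. The order of the Ttr libraries by this sum, with replicate 4 of both groups at the top and overexpression replicate 2 at the bottom, resembled that of the class I genes. Astrocyte markers, 5 of 5 detected, summed to 858 to 1106 CPM in controls. In replicates 1 to 4 they summed to 1164, 881, 1239 and 1263 CPM with overexpression and 975, 1072.5, 1040 and 1285 CPM with knockdown. These sums had the same libraries at the top and bottom of the Ttr libraries, so that feature of the sums was not particular to microglia. The astrocyte markers did not all share it. In knockdown replicate 4 Gfap was at 88.6 CPM, below every control (136 to 200 CPM), while the other members were above every control. In overexpression replicate 4 Gja1 was at 157 CPM, among the controls (127 to 161 CPM), and the other members were above every control. Endothelial markers, 6 of 6 detected, summed to 191 to 218 CPM in controls, 217 to 282 CPM with overexpression and 212 to 276 CPM with knockdown. Border macrophage markers, 5 of 5 detected, summed to 3.17 to 7.13, 8.17 to 14.4 and 6.16 to 8.30 CPM. Mural and meningeal markers, 8 of 8 detected, summed to 141 to 176 CPM in controls, 182 to 264 CPM with overexpression and 160 to 180 CPM with knockdown, so that overexpression was clear of the controls. Oligodendrocyte markers, 5 of 5 detected, summed to 2023 CPM in knockdown replicate 4, below the 3343 to 8312 CPM of the other 11 libraries. The part of these cells in the class I result was not tested.

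Lymphocyte markers were scarce in most libraries. The 7 T cell markers summed to 16.6 to 31.5 CPM in controls, 18.6 to 29.6 CPM with overexpression and 16.5 to 23.9 CPM with knockdown, most of it from Trbc2 and Cd4. That sum hides the other members in overexpression replicate 4, which had 47 counts of Cd3g (0 to 13 in the other 11 libraries), 67 of Trac (8 to 28) and 9 of Cd3d (0 to 7), beside the Cd8a and Cd3e counts given above. Trbc2 went the other way in that library, at 10.7 CPM against 11.3 to 22.7 CPM in the other 11. Cd4, at 8.93 CPM there, lay within the controls (1.24 to 10.9 CPM). NK cell markers, 4 of 4 detected, summed to at most 0.207 CPM in controls, 1.73 CPM with overexpression and 0.663 CPM with knockdown. In overexpression replicate 4, where the highest sum was found, 1.64 CPM of it came from Nkg7, a granule gene that T cells also express, and Ncr1 and Klrb1c were at 0. B and plasma cell markers, 5 of 5 detected, summed to 0.651 to 1.41, 1.07 to 10.0 and 0.776 to 1.26 CPM. The 6 monocyte and dendritic cell markers summed to 4.71 to 6.72, 6.53 to 14.1 and 6.31 to 6.99 CPM, with Xcr1 at 0 in all controls. The part of these cells in the class I result was not tested either.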

How the data were processed

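Poly(A) libraries of 12 prefrontal cortex samples were used, 3 groups of 4. The authors deposited counts per gene that are whole numbers and not normalized. The deposited TPM values equalled those counts divided by a fixed length per gene and scaled, within 0.01 on the log2 scale for 100% of 15084 genes compared. The authors also deposited variance-stabilised values on a log2 scale, by a step that is not stated. The submitters' processing notes name bcl2fastq 2.20.0.422, UMI-tools, featureCounts, DESeq2 and GRCm38 (mm10) without their roles. Not given in the sources used here are the aligner, annotation release and strand setting, nor whether molecular identifiers were used. Of 55401 identifiers, 55141 were matched to symbols with the GENCODE annotation.

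Counts were tested in edgeR 4.0.16 (R 4.3.3) by its quasi-likelihood method, with TMM scaling, the default filter by group and 3 group means fitted to all 12 libraries. P-values were adjusted by Benjamini-Hochberg over 18289 genes, threshold 0.05, and the SE of a log2 fold change was taken from its test statistic. The common biological coefficient of variation was 0.126. CPM used the TMM factors. Subunit ratios used log2 of TPM plus 0.01. Fold changes on log2 CPM of single libraries and the heat map used the same factors. The steps were tested on simulated data. Replicates were compared for duplicate deposits: the 18 within-group pairs had chi-square values of 5.37 to 28.4 per degree of freedom, above sampling noise.

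The genes, the lists and the comparisons were chosen with earlier results of these data known. Named were the 10 genes, Ttr, from the list of other pathway genes those called and up to 3 per subgroup with the smallest edgeR p in overexpression against control, and the 8 genes most like the set's mean log2 CPM. A gene that this rule named is not reported here. Alternatives were RLE and upper-quartile scaling, other filters, DESeq2 1.42.0, limma 3.58.1 (voom, log2 TPM and the variance-stabilised values), fits of the compared groups alone, the replicate number as a block and each library left out. Leaving out replicate 4 of both Ttr groups together was added after seeing the data. Figures used matplotlib 3.10.9.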

Additional observations from a re-analysis of the deposited data

Results flagged for a closer look

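Of 39 groups of 4 libraries examined, 2 held a library far from the other 3, where chance gives about 1 in 20 groups. H2-K1 in the controls was lowest in control replicate 4, at 24.03 CPM against 30.8 to 32.1 CPM in the other 3, and that gap was 0.858 of the group's whole range on the log2 scale. Tap2 in the knockdown group was highest in replicate 4, at 23.2 CPM against 9.56 to 10.8 CPM, a gap of 0.863 of the range. Control replicate 4 was also the lowest control for B2m, H2-D1, Tap1, Psmb9 and Nlrc5.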

How the results depend on the processing

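No alternative called any of the 10 genes. All fold changes against control stayed above 0 except that of Psmb10 with overexpression, which was -0.005431 without control replicate 3, -0.0138 without replicate 4 of both Ttr groups and from -0.0246 (without overexpression replicate 4) to 0.0716 over libraries left out. The median with overexpression ranged from 0.54 to 1.73 over libraries left out, and was 0.55 without replicate 4 of both groups. The median with knockdown was 0.52 on the variance-stabilised values, a compressed scale. In overexpression against knockdown the median ranged from -0.52 to 0.72 over libraries left out, was -0.0101 without knockdown replicate 3 and -0.0127 without replicate 4 of both groups. Over libraries left out, single genes there ranged from -0.63 to 0.37 (B2m), -0.67 to 0.69 (H2-D1; -0.14 without replicate 4 of both), -0.47 to 0.92 (H2-K1), -0.97 to 0.74 (Tap1), -0.26 to 0.56 (Tap2), -0.43 to 0.0597 (Tapbp), -0.56 to 0.88 (Psmb8), -0.59 to 0.99 (Psmb9) and -0.34 to 1.34 (Nlrc5), and the log2 ratios from -0.33 to 0.67 (Psmb8), -0.34 to 0.72 (Psmb9) and -0.19 to 0.0262 (Psmb10). Each of these settings tests fewer samples, and the cause of the changes was not tested further. Among other pathway genes DESeq2 called 1 with overexpression (Cd8a) and 1 with knockdown (Irf9), and edgeR with no filter on low counts called Irf9 (adjusted p = 0.0418).

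Over all genes edgeR called 1, 1 and 1 in overexpression against control, knockdown against control and overexpression against knockdown. With no filter the counts were 20, 22 and 1, with DESeq2 39, 43 and 4, and without knockdown replicate 4 knockdown against control gave 10 (17 without replicate 4 of both groups). Every other alternative gave 0 to 6. With the replicate number as a block the calls over all genes were 1, 0 and 2, those among the 10 genes 0, and the medians 1.05, 0.93 and 0.10. The labels give no pairing: same-numbered libraries correlated at -0.341 to 0.16 over 12 pairs, and 0 of 12 correlated best with their own number. With 3 against 4 libraries an exact permutation test of a ratio cannot go below p = 0.0571, and with 4 pairs not below 0.125, so neither can pass. With 4 against 4 the exact permutation test cannot go below p = 0.0286. After adjustment over the 9 ratio tests a ratio at that p cannot pass by itself. Depth limits Nlrc5, Psmb9 and the listed genes with few counts most.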
